A study of Mus musculus with 36 samples.

Results

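Glutamate receptor subunits and the scaffold proteins that hold them at the synapse were followed across 3 brain regions and 4 treatments of the mouse. The set held every array probe whose gene symbol begins with Gria, Grik, Grin, Grm, Grid, Cacng, Homer, Dlg, Dlgap or Shank followed by a digit, without regard to case. This gave 100 probes of 49 gene symbols, out of 45281 probes and 30869 symbols on the array. The study asked how chronic inhibition of histone deacetylases, enzymes that remove acetyl groups from histones, changed RNA levels in the brain. Adult male C57BL/6J mice received a daily intraperitoneal injection for 10 days, and tissue was taken 1 h after the last dose. The vehicle group received saline with PEG-400 and DMSO at 7.5 mL/kg. Cpd-60, a benzamide inhibitor of HDAC1 and HDAC2 with slow binding kinetics, was given at 45 mg/kg in 7.5 mL/kg. SAHA (vorinostat), a hydroxamic acid inhibitor, was given at 25 mg/kg in 5 mL/kg. CI-994, a benzamide inhibitor, was given at 10 mg/kg in 5 mL/kg. All of the mice were wild type, and no allele differed between groups. RNA of the hippocampus (HIP), the prefrontal cortex (PFC) and the nucleus accumbens (NAc) was measured on 36 arrays, 3 per treatment in every region, and each array held the RNA of a pool of 2 mice. The volume of the vehicle matched that of Cpd-60 and not that of SAHA or CI-994, and the doses differed among the compounds. No compound was therefore tested against another. Where their pools are set side by side, a compound cannot be told apart from its dose and volume. The tissue was bulk tissue, in which fewer cells of a type and less RNA per cell cannot be told apart.

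Glutamate acts at most excitatory synapses of the brain through ion channels of the AMPA, kainate and NMDA classes and through metabotropic receptors coupled to G proteins. AMPA receptors carry the fast current, and auxiliary subunits called transmembrane AMPA receptor regulatory proteins (TARPs), encoded by Cacng genes, govern their trafficking and gating. Beneath the membrane, proteins of the Dlg, Dlgap, Shank and Homer families form layers of the postsynaptic density that tie the receptors to signaling enzymes and to the cytoskeleton.

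The drug comparisons turned on Cacng5 and Gria2, and their promoter windows are shown because the compounds act on chromatin. The windows were taken from RefSeq on the mouse build GRCm38.p6 and run 5′ to 3′ on the strand of the gene, with 250 bases before and 50 bases from the annotated start of transcription. Capitals mark the GC box GGGCGG, searched on both strands, so that it also appears as CCGCCC. The annotation gave 2 starts for Cacng5 and 1 for Gria2.
Cacng5, first start, chr11:107915006-107915305, minus strand: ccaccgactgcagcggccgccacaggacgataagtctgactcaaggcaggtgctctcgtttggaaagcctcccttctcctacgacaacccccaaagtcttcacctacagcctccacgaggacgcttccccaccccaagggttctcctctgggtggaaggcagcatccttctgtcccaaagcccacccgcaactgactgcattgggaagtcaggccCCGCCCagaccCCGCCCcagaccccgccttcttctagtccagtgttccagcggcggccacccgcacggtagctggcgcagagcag
Cacng5, second start, chr11:107911313-107911612, minus strand: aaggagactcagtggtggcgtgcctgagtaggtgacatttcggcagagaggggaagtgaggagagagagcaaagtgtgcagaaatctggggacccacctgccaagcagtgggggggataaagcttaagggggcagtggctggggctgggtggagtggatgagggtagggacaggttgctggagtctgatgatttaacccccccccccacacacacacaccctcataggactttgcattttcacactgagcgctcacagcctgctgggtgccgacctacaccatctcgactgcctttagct
Gria2, chr3:80802786-80803085, minus strand: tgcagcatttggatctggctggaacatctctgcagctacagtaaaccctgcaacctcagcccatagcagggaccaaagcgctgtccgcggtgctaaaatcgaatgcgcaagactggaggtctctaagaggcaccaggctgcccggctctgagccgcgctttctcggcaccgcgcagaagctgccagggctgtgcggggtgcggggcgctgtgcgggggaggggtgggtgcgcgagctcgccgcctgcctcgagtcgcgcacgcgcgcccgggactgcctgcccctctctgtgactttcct
The first Cacng5 window held 17 CpG dinucleotides and 2 GC boxes, whereas the second held 5 CpG dinucleotides and 0 GC boxes. The Gria2 window held 26 CpG dinucleotides and 0 GC boxes. The median over the 32851 windows of the table was 7 CpG dinucleotides, and 35.7% of those windows held a GC box. The cyclic AMP response element TGACGTCA, whose letters read the same on both strands, was in 1.79% of all windows and in none of these 3. A window was given for 33 of the 49 genes of the set. A match of letters describes the window only, and no histone mark was measured here.

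Depth on these arrays is set by brightness. The 95th percentile of the deposited intensity ran from 349.9 to 1079.7 over the 36 arrays, and 31.9% to 43.3% of probes were detected at a detection p of 0.01. Cpd-60 in NAc held both ends of these ranges, with 349.9 and 31.9% in pool 1 and 1079.7 and 43.3% in pool 3. The NAc vehicle pools had 95th percentiles of 480.5 to 861.2. Arrays of the same group correlated at r = 0.965 to 0.995. The SAHA arrays of HIP pools 2 and 3 were dim, with 95th percentiles of 437.7 and 452.0 against 686.4 to 839.6 in the HIP vehicle pools. The description of the Cpd-60 pool of mice 3 and 4 names mice 1 and 2, while its title and source name 3 and 4, which were used. Markers fitted the dissected regions. All 8 striatal medium spiny neuron markers tested were higher in NAc than in PFC, 7 of 8 hippocampal neuron markers were higher in HIP than in PFC, and 5 of 6 cortical glutamatergic neuron markers were lower in NAc than in PFC, at an adjusted p under 0.05 in limma. All 6 oligodendrocyte markers were also higher in HIP and in NAc than in PFC, and all 6 choroid plexus markers were higher in HIP than in PFC. Where p-values are given, they measure only the spread between these pools.

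Of the 100 probes, 80 probes of 41 genes were tested in at least 1 comparison, because they were present at a detection p of at most 0.2 on 3 of 3 arrays of some group. A stricter view found 42 probes of 26 genes detected at 0.01 on all 36 arrays and 17 probes detected on none. The remaining 20 probes entered no test, and 8 genes had no tested probe. These were Cacng1 and Cacng6, gamma subunits of voltage-gated calcium channels known from muscle, the NMDA subunits Grin2d, Grin3a and Grin3b, the metabotropic receptors Grm3 and Grm6, and Dlgap5, a protein of the mitotic spindle. Values below are normalized log2 intensities, which are comparable for 1 probe across arrays and not between probes. The brightest tested probe stands for a gene unless another is named.

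The first question was how these genes differed among the 3 regions under vehicle. Of 77 probes tested, 38 probes of 21 genes differed between at least 1 pair of regions at an adjusted p under 0.05 in limma, where 37.4% of all 22606 probes did. HIP exceeded PFC for 7 probes (9.09%, against 12.5% of all probes), and PFC exceeded HIP for 17 (22.1%, against 12.4%). NAc exceeded PFC for 10 probes (13.0%, against 8.17%), and PFC exceeded NAc for 11 (14.3%, against 10.2%). HIP exceeded NAc for 11 probes (14.3%, against 7.29%), and NAc exceeded HIP for 15 (19.5%, against 8.83%). The median difference of the members was -0.08 for HIP minus PFC, 0.01 for NAc minus PFC and -0.03 for HIP minus NAc, beside -0.03, 0.00 and 0.00 over all probes. All of these called differences, 24, 21 and 26 in turn, kept their sign in the arrays of each of the 3 drugs. The families did not contribute alike. Of Cacng probes 8 of 9 were called, of Homer 4 of 5, of Dlgap 8 of 13, of Gria 7 of 12 and of Grm 6 of 11. Grik, Dlg and Shank had 1 called probe each, of 7, 5 and 5, and Grin had 0 of 7. Each region lay on 2 BeadChips of its own, so region and BeadChip cannot be told apart. With the BeadChip as a random block the 3 counts were 19, 22 and 25, beside 24, 21 and 26. The count of HIP against PFC was 13 without vehicle pool 1 or without vehicle pool 2, and that of NAc against PFC was 12 without vehicle pool 2.

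**Figure D1:**
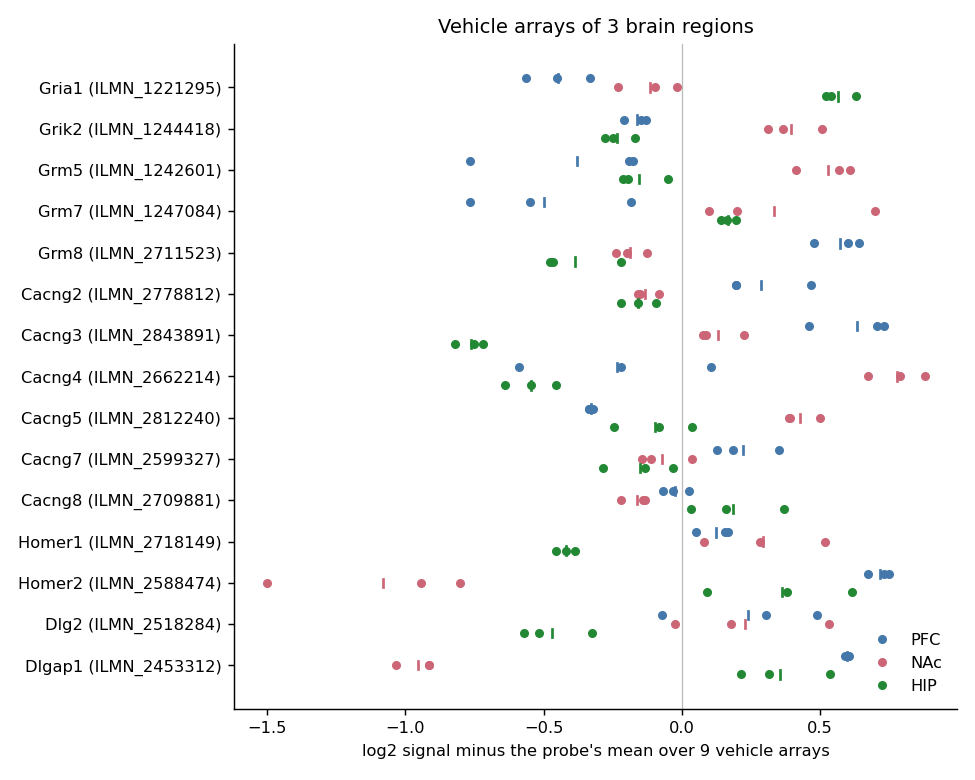
Normalized log2 intensity of the named members in each vehicle pool, minus the probe's mean over the 9 vehicle arrays (horizontal axis), with points for pools and ticks for group means, colored by region. Homer2 and Dlgap1 sit lowest in NAc, Cacng4, Cacng5, Grm5 and Grik2 sit highest there, Gria1 sits highest in HIP, and Cacng3 steps down from PFC to NAc to HIP.

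Among AMPA receptor subunits, Gria1 had the clearest regional pattern. Gria1 encodes the subunit whose synaptic delivery accompanies long-term potentiation. Its level was 10.40, 10.29 and 10.52 in the PFC pools, 10.84, 10.76 and 10.63 in the NAc pools and 11.38, 11.40 and 11.49 in the HIP pools. The regions did not overlap. Gria1 was 2.02-fold higher in HIP than in PFC (log2 difference 1.01, SE 0.106, n = 3 pools each, adjusted p = 5.85e-08 in limma) and 1.60-fold higher in HIP than in NAc (adjusted p = 2.08e-05 in limma). The other 3 Gria1 probes differed by 1.09 to 1.19 between HIP and PFC. NAc also exceeded PFC, by 0.33 (adjusted p = 0.0262 in limma). For Gria2, the subunit that limits calcium entry through the channel, the probes did not concur. ILMN_1222167 was higher in HIP than in PFC by 1.00 (adjusted p = 0.0244 in limma), whereas the brightest Gria2 probe differed by 0.10 (adjusted p = 0.634 in limma). Gria3 was likewise split. Its probe ILMN_2638066 was lower in HIP than in PFC by a log2 difference of -0.62 and lower in NAc by -0.51, and ILMN_1238789 was lower in HIP by -0.29, while its brightest probe stood at 0.89 for HIP minus PFC with an adjusted p of 0.0749 in limma. Gria4 was called in no pair of regions.

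Kainate receptors form channels of their own and also tune transmitter release. Of their 5 genes, Grik2 alone passed the test. Its level was 7.49, 7.43 and 7.51 in PFC, 7.95, 8.00 and 8.15 in NAc and 7.47, 7.39 and 7.36 in HIP. The NAc pools lay above all others. Grik2 was 1.47-fold higher in NAc than in PFC (SE 0.105 on the log2 scale, adjusted p = 0.000249 in limma) and lower in HIP than in NAc by -0.63. NMDA receptors, which need both glutamate and depolarization to open, showed no called difference for any of the 7 probes of Grin1, Grin2a, Grin2b and Grin2c. The widest gap was that of Grin1, the obligatory subunit, whose brightest probe stood at -0.45 for HIP minus PFC and -0.45 for NAc minus PFC, with adjusted p-values of 0.0814 and 0.107 in limma. These adjusted values miss the threshold and do not show that the regions have equal levels.

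Metabotropic receptors divided by region. Grm5, a group I receptor that couples to phospholipase C at the postsynaptic side, read 9.44, 8.85 and 9.43 in PFC, 10.03, 10.19 and 10.23 in NAc and 9.57, 9.43 and 9.41 in HIP. It was 1.88-fold higher in NAc than in PFC (SE 0.171 on the log2 scale, adjusted p = 0.000249 in limma) and lower in HIP than in NAc by -0.68, a call lost without vehicle pool 3 (-0.61), and the other called Grm5 probes differed between NAc and PFC by 0.34 and 0.47. The NAc pools did not overlap with either other region. Grm7, a group III receptor of presynaptic terminals, read 7.67, 7.89 and 8.26 in PFC, 8.54, 8.64 and 9.14 in NAc and 8.64, 8.60 and 8.58 in HIP. It was lowest in PFC, being 1.78-fold higher in NAc (adjusted p = 0.00452 in limma) and 1.59-fold higher in HIP (adjusted p = 0.0192 in limma), the latter call being lost without vehicle pool 1 or 2, at 0.52 and 0.64. Grm8, another presynaptic group III receptor, had the opposite order, with 7.54, 7.66 and 7.70 in PFC, 6.94, 6.86 and 6.82 in NAc and 6.84, 6.59 and 6.59 in HIP. PFC exceeded HIP 1.95-fold (adjusted p = 1.62e-07 in limma) and NAc 1.70-fold (adjusted p = 3.78e-06 in limma), and Grm8 was detected at 0.01 on 1 of 3 HIP arrays. Grm4 was not called in any pair of regions.

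All 6 tested Cacng genes differed between some pair of regions, and their orders were not alike. Cacng3, a type I TARP, read 9.42, 9.45 and 9.17 in PFC, 8.80, 8.79 and 8.94 in NAc and 7.89, 7.96 and 8.00 in HIP. It was 2.63-fold higher in PFC than in HIP (log2 difference of HIP minus PFC -1.40, SE 0.143, adjusted p = 4.30e-08 in limma) and 1.42-fold higher in PFC than in NAc (adjusted p = 0.0128 in limma). Its levels stepped down from PFC to NAc to HIP without overlap. Cacng2, which encodes stargazin, read 7.62, 7.35 and 7.35 in PFC, 6.99, 7.07 and 7.00 in NAc and 6.93, 7.06 and 6.99 in HIP. It was highest in PFC, by 1.36-fold over HIP (adjusted p = 0.0109 in limma) and 1.34-fold over NAc (adjusted p = 0.0192 in limma), and NAc and HIP did not differ beyond their spread. The call against NAc was lost when any of the vehicle pools was left out, at -0.49 to -0.31, and that against HIP without vehicle pool 1, at -0.32. For Cacng3 the call of NAc against PFC was lost without vehicle pool 1 or 2, at -0.45 and -0.43. Cacng4, also a type I TARP, read 7.74, 7.42 and 7.05 in PFC, 8.31, 8.43 and 8.52 in NAc and 7.18, 7.00 and 7.09 in HIP. It was 2.02-fold higher in NAc than in PFC (log2 difference 1.02, SE 0.193, adjusted p = 0.000277 in limma) and 2.51-fold higher in NAc than in HIP (adjusted p = 7.11e-06 in limma), while PFC and HIP overlapped. Cacng8, the remaining type I TARP, was 1.28-fold higher in HIP than in NAc (adjusted p = 0.0140 in limma), with 7.20, 6.86 and 6.99 against 6.69, 6.61 and 6.69. It was detected at 0.01 on 1 of 3 NAc arrays, and at 0.27 without vehicle pool 1 this call was lost.

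The type II TARPs Cacng5 and Cacng7 also had different orders. Cacng5 (probe ILMN_2812240) read 7.20, 7.20 and 7.22 in PFC, 7.93, 7.92 and 8.04 in NAc and 7.57, 7.29 and 7.45 in HIP. NAc was 1.69-fold above PFC (log2 difference 0.76, SE 0.140, adjusted p = 0.000200 in limma) and above HIP, which stood at -0.52 relative to NAc (adjusted p = 0.00880 in limma). The regions did not overlap, although HIP minus PFC, at 0.23, did not pass (adjusted p = 0.237 in limma). A further Cacng5 probe, ILMN_2725698, gave 0.42 for NAc minus PFC (adjusted p = 0.00284 in limma), -0.41 for HIP minus NAc (adjusted p = 0.00349 in limma) and 0.01 for HIP minus PFC. Cacng7 read 7.70, 7.54 and 7.48 in PFC, 7.39, 7.24 and 7.21 in NAc and 7.32, 7.07 and 7.22 in HIP, and PFC exceeded HIP 1.29-fold (adjusted p = 0.0480 in limma). That call was lost in 6 of 12 fits that each left out 1 pool, with values from -0.43 to -0.32, namely those without any of the vehicle pools, Cpd-60 pool 1 or 2, or SAHA pool 2. It was also lost with the BeadChip as a random block (adjusted p = 0.0748 in limma) and with no detection filter (adjusted p = 0.0839 in limma).

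The scaffold genes held the widest gaps between regions. Homer proteins link group I metabotropic receptors to Shank and to intracellular calcium stores. Homer2 read 9.80, 9.74 and 9.82 in PFC, 8.26, 8.12 and 7.57 in NAc and 9.16, 9.45 and 9.68 in HIP. It was 3.49-fold lower in NAc than in PFC (log2 difference -1.80, SE 0.165, adjusted p = 1.97e-09 in limma) and 2.72-fold lower in NAc than in HIP (adjusted p = 1.16e-07 in limma). Homer1 was instead lowest in HIP. Its level was 9.91, 10.02 and 10.03 in PFC, 9.94, 10.14 and 10.38 in NAc and 9.41, 9.45 and 9.48 in HIP, with PFC 1.46-fold (adjusted p = 0.00135 in limma) and NAc 1.64-fold (adjusted p = 5.14e-05 in limma) above HIP. A pair of other Homer1 probes gave -0.57 and -0.68 for HIP minus PFC, and ILMN_2595990, a Homer1 probe near background, gave 0.03. Dlgap1, also called GKAP, binds PSD-95 to Shank. It read 12.09, 12.10 and 12.10 in PFC, 10.58, 10.58 and 10.46 in NAc and 11.71, 11.81 and 12.03 in HIP. NAc lay 2.94-fold below PFC (log2 difference -1.55, SE 0.0845, adjusted p = 4.49e-14 in limma) and 2.48-fold below HIP (adjusted p = 1.62e-12 in limma), with no overlap. Between HIP and PFC the Dlgap1 probes ran in opposite directions. ILMN_2453312 stood at -0.24 (adjusted p = 0.0350 in limma), whereas ILMN_2468256 stood at 0.78 (adjusted p = 0.000369 in limma), a difference of at least 1.58-fold because this probe was not well above background in PFC. Dlgap4 was lower in HIP than in PFC on a pair of its probes, by -0.71 and -0.87, while its brightest probe was not called.

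Dlg genes encode the membrane-associated guanylate kinases that anchor NMDA and AMPA receptors. Dlg2, or PSD-93, read 10.24, 10.06 and 9.68 in PFC, 9.93, 9.73 and 10.29 in NAc and 9.43, 9.24 and 9.19 in HIP. It was lowest in HIP, 1.64-fold below PFC (adjusted p = 0.0135 in limma) and 1.62-fold below NAc (adjusted p = 0.0196 in limma), while PFC and NAc overlapped. The call against NAc was lost without any of the vehicle pools, at -0.80 to -0.50, and that against PFC without vehicle pool 1 or 2, at -0.66 in both fits. Dlg1, Dlg3, Dlg4 and Dlg5 were not called in any pair of regions, nor were Shank2, Shank3 and Dlgap3. Shank1, an outer scaffold of the density, was called as lower in HIP than in PFC at -0.18, but was not well above background in HIP, and no fold is given.

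Genes that work with these receptors were read from 3 lists, at an adjusted p under 0.05 in limma. Over all probes, 12.5% were higher and 12.4% lower in HIP than in PFC. For NAc against PFC these shares were 8.17% and 10.2%, and for HIP against NAc 7.29% and 8.83%. The counts of the lists were not tested against these shares. Of 10 tested AMPA and kainate receptor partners, 1 was higher and 2 lower in HIP than in PFC, 2 higher and 5 lower in NAc than in PFC, and 3 higher and 2 lower in HIP than in NAc. Gsg1l, an AMPA receptor auxiliary subunit, was lower in HIP than in PFC by a log2 difference of -1.67 and lower in HIP than in NAc by -2.09. The kainate receptor auxiliary subunits Neto1 and Neto2 were higher in NAc than in PFC by 0.81 and 1.05. Of 17 genes of postsynaptic density signaling, 3 were higher and 2 lower in HIP than in PFC, 3 higher and 4 lower in NAc than in PFC, and 4 higher and 2 lower in HIP than in NAc. Among these Camk2a, a kinase that acts in synaptic plasticity, was lower in NAc than in PFC by -1.16. Of 8 genes of glutamate synthesis and transport, 1 was higher and 1 lower in HIP than in PFC, 1 higher and 3 lower in NAc than in PFC, and 3 higher and 1 lower in HIP than in NAc. Slc17a7, the vesicular glutamate transporter of cortical neurons, was lower in NAc than in PFC by -3.41, and the related Slc17a8 was higher by 0.84. The lists' median differences were 0.04, -0.14 and 0.05 for the partners, -0.10, -0.24 and 0.03 for signaling and -0.08, -0.29 and 0.36 for synthesis and transport, in the order HIP minus PFC, NAc minus PFC and HIP minus NAc. Medians over all probes were -0.03, -0.004 and -0.002 in the same order.

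The second question was what each compound did to these genes in each region. A call needed a change of at least 1.2-fold, the fold used by the study, and an unadjusted p under 0.05 in limma in place of the study's Tukey test, since limma gave 0 probes with an adjusted p under 0.05 in any of the 9 comparisons, over members and over all probes. The 3 compounds were set against the same vehicle arrays in each region, and their results are therefore not independent. Few members passed. Against vehicle, Cpd-60 called 0 of 74 probes in PFC, 3 of 70 in NAc and 2 of 75 in HIP, beside 1.11%, 1.78% and 1.53% of all probes. SAHA called 0, 3 and 1 in the same order, beside 0.217%, 0.546% and 3.17% of all probes. CI-994 called 0, 3 and 0, beside 0.654%, 0.383% and 0.67%. With analysis of variance and Tukey's test in place of limma, the NAc counts were 1, 1 and 0 for Cpd-60, SAHA and CI-994, and SAHA in HIP had 0. The 12 calls fell on Cacng5, Gria2, Gria3, Homer1, Dlg4 and Grin1, and no Grik, Grm, Dlgap or Shank probe was among them. At an unadjusted p under 0.05 alone, Cpd-60 gave 4, 5 and 4 members (5.41%, 7.14% and 5.33%, against 5.19%, 4.77% and 5.26% of all probes). SAHA gave 0, 4 and 6 (0%, 5.71% and 8.00%, against 2.25%, 2.05% and 9.37%), and CI-994 gave 0, 4 and 3 (0%, 5.71% and 4.00%, against 3.98%, 1.99% and 3.24%). The smallest adjusted p of a member was 0.886 in PFC, 0.942 in NAc and 0.814 in HIP for Cpd-60 and 0.502 for SAHA in HIP.

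**Figure D2:**
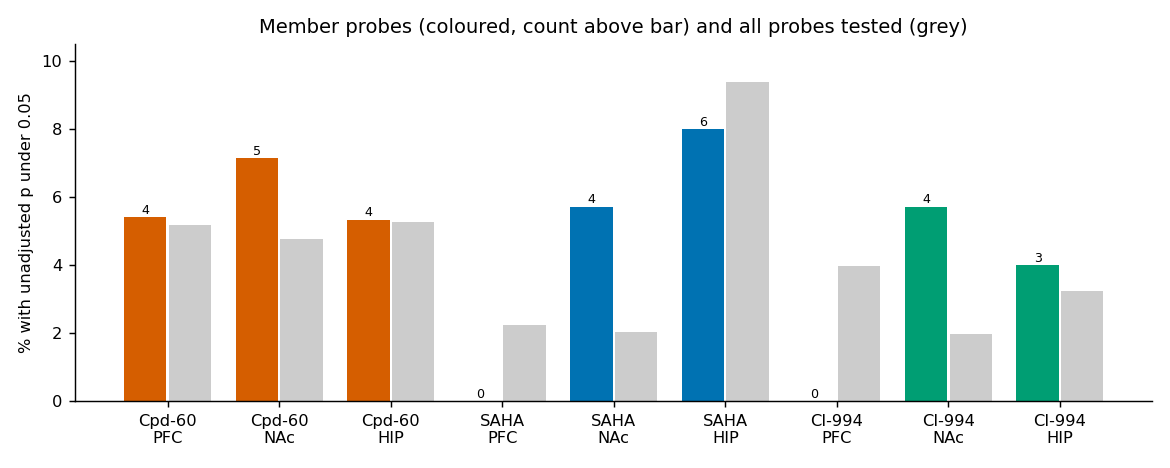
Percent of probes with an unadjusted p under 0.05 in limma (vertical axis) for members (colored bars with their count) and for all probes tested (grey bars), in each of the 9 comparisons of a drug with vehicle. Members stand above all probes in NAc for each compound, at 5.71% to 7.14% against 1.99% to 4.77%, and at 0% for SAHA and CI-994 in PFC. Probes of Gria2 and Homer1 recur in the NAc counts of each compound, against the same vehicle arrays.

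The changes were small throughout. Over members they ran from -0.22 to 0.24 on the log2 scale in PFC, from -0.28 to 0.51 in NAc and from -0.20 to 0.48 in HIP under Cpd-60. Under SAHA they ran from -0.18 to 0.19, from -0.41 to 0.23 and from -0.34 to 0.26, and under CI-994 from -0.23 to 0.14, from -0.31 to 0.16 and from -0.24 to 0.30. Median changes of the members were 0.01, 0.01 and 0.07 for Cpd-60, 0.01, -0.02 and -0.04 for SAHA and -0.03, -0.02 and 0.02 for CI-994, while the median over all probes lay between -0.01 and 0.00 in all 9 comparisons.

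Cacng5 stood highest among the members under Cpd-60. The gene was known from earlier results of these arrays, so its values here are a description and not independent evidence. On probe ILMN_2725698 in NAc, the vehicle pools read 7.29, 7.21 and 7.10, the Cpd-60 pools 7.61, 7.89 and 7.61, the SAHA pools 7.43, 7.10 and 7.43, and the CI-994 pools 7.45, 7.12 and 7.33. Every Cpd-60 pool lay above every other pool of the region. Cpd-60 was 1.42-fold above vehicle (log2 change 0.51, SE 0.119, n = 3 pools each, unadjusted p = 0.00151, adjusted p = 0.942, both in limma). In HIP the same probe read 6.87, 6.86 and 6.62 under vehicle, 7.20, 7.27 and 7.02 under Cpd-60, 6.75, 6.71 and 6.59 under SAHA and 6.96, 7.05 and 6.86 under CI-994. Cpd-60 was 1.30-fold above vehicle (log2 change 0.38, SE 0.0891, unadjusted p = 0.00112, adjusted p = 0.814, both in limma), and its lowest pool lay below the highest CI-994 pool. In PFC it read 6.79, 6.70 and 6.84 under vehicle and 6.92, 7.11 and 7.01 under Cpd-60, a change of 0.24 that stayed under 1.2-fold (unadjusted p = 0.00905 in limma). Markers of other cells also moved under Cpd-60 in NAc. The astrocyte markers Gfap and Gja1 changed by 0.77 and 0.30 (2 of 6 called), the microglial Cx3cr1 by -0.46 (1 of 6), the hemoglobin gene Hbb-b1 by -0.56 (1 of 3) and Trh, a septal and hypothalamic marker, by 0.27 (1 of 5). The summed intensity of the astrocyte list ran from 8211 to 9759 under vehicle and 8645 to 10389 under Cpd-60, that of the microglial list from 1260.2 to 1316 and 1010.1 to 1262, that of the blood list from 8099.6 to 11515.5 and 5154 to 8153, and that of the septal list from 608 to 777 and 621 to 935. Their part in the NAc values was not tested. In PFC and HIP under Cpd-60, 0 markers of these lists were called.

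The brighter Cacng5 probe, ILMN_2812240, gave the same direction under Cpd-60 in all 3 regions. In HIP it read 7.57, 7.29 and 7.45 under vehicle and 7.96, 8.20 and 7.60 under Cpd-60, a 1.40-fold difference (log2 change 0.48, SE 0.128, unadjusted p = 0.00268, adjusted p = 0.814, both in limma). In NAc it read 7.93, 7.92 and 8.04 under vehicle and 8.25, 8.55 and 8.33 under Cpd-60, a 1.33-fold difference (log2 change 0.41, SE 0.182, unadjusted p = 0.0453, adjusted p = 0.999, both in limma). The groups did not overlap, but this probe lost its call with Tukey's test and in 9 of 12 fits that each left out 1 pool, and without the Cpd-60 pool of mice 3 and 4 the change was 0.33. A SAHA pool of NAc read 8.61 on this probe, above all Cpd-60 pools, while the other SAHA pools read 8.05 and 7.72. In PFC the probe read 7.20, 7.20 and 7.22 under vehicle and 7.36, 7.40 and 7.35 under Cpd-60, a change of 0.16 (unadjusted p = 0.0164 in limma) that was under 1.2-fold. Under SAHA the changes of both probes ran from -0.10 to 0.16 and under CI-994 from -0.02 to 0.17, and none had an unadjusted p under 0.05. ILMN_1226821, a Cacng5 probe near background, moved by -0.07 to 0.05 under the 3 compounds. An F test of whether the Cpd-60 change differed among the regions gave unadjusted p = 0.185 on ILMN_2725698 and unadjusted p = 0.260 on ILMN_2812240, both in limma.

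The 2 BeadChips of a region each held vehicle and Cpd-60 pools, so the change could be read within each. On ILMN_2725698 it was 0.27 and 0.17 in PFC, 0.51 and 0.51 in NAc and 0.37 and 0.40 in HIP. On ILMN_2812240 it was 0.18 and 0.13, 0.47 and 0.30, and 0.65 and 0.15. Cpd-60 lay above vehicle on each BeadChip, and the second value of each pair rests on 1 pool of each group. Without the Cpd-60 pool of mice 3 and 4, ILMN_2725698 changed by 0.19, 0.41 and 0.33 in PFC, NAc and HIP.

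**Figure D3:**
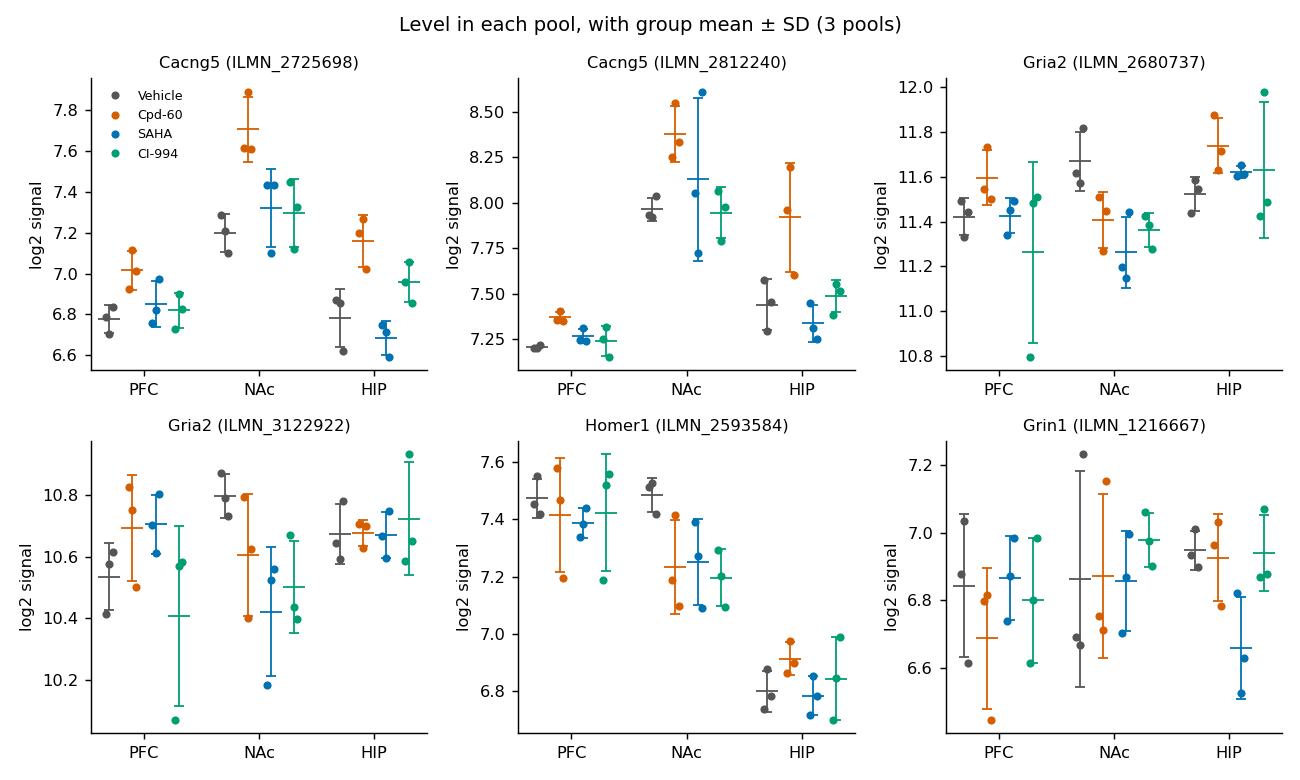
Normalized log2 intensity (vertical axis) of the named probes in each pool, by treatment and region, with points for pools and bars for the group mean ± SD of 3 pools. Cacng5 pools of Cpd-60 lie above those of vehicle in each region, and Gria2 pools of SAHA and CI-994 in NAc lie below those of vehicle.

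No other Cacng probe was called under any compound. The 6 tested probes of 5 other genes, the type I TARPs Cacng2, Cacng3, Cacng4 and Cacng8 and the type II TARP Cacng7, changed under Cpd-60 by -0.22 to 0.03 in PFC, by -0.13 to 0.11 in NAc and by -0.07 to 0.13 in HIP. None of these changes had an unadjusted p under 0.05. Under SAHA the ranges were -0.10 to 0.07, -0.15 to 0.08 and -0.25 to 0.09, again with none under 0.05. Under CI-994 they were -0.15 to 0.11, -0.21 to 0.07 and -0.03 to 0.30, and Cacng2 in NAc, at -0.14 (unadjusted p = 0.0470 in limma), was the only probe under 0.05 and was not past 1.2-fold. Cacng1 and Cacng6 were detected at 0.01 on 0 of 36 arrays.

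**Figure D4:**
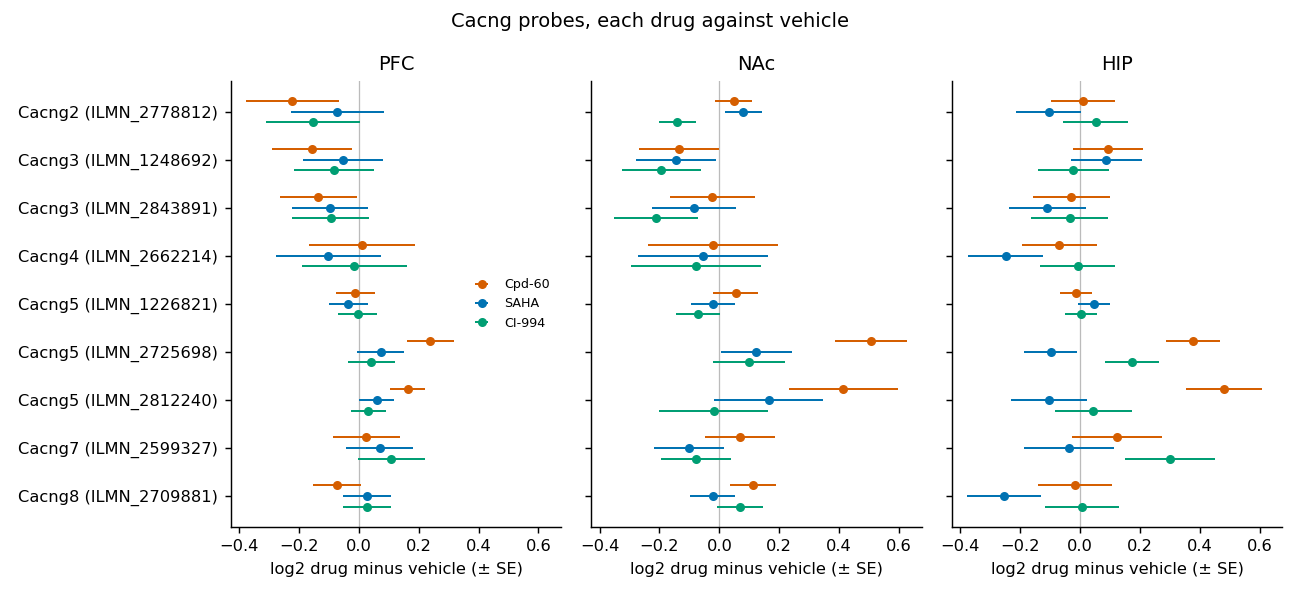
Log2 change against vehicle (axis) of each tested Cacng probe under Cpd-60, SAHA and CI-994, 1 panel per region, with bars of 1 SE from limma. The 2 brighter Cacng5 probes lie at 0.16 to 0.51 under Cpd-60, and the 6 probes of other Cacng genes lie between -0.22 and 0.13 under this compound.

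In NAc, Gria2 stood below vehicle under the other compounds. On ILMN_2680737 the vehicle pools read 11.62, 11.57 and 11.82, the Cpd-60 pools 11.51, 11.27 and 11.45, the SAHA pools 11.20, 11.15 and 11.44 and the CI-994 pools 11.43, 11.38 and 11.28. No treated pool reached the lowest vehicle pool. SAHA was 1.33-fold below vehicle (log2 change -0.41, SE 0.0994, n = 3 pools each, unadjusted p = 0.00195, adjusted p = 0.9998, both in limma). CI-994 was 1.24-fold below it (log2 change -0.31, unadjusted p = 0.0111, adjusted p = 0.9999, both in limma), and Cpd-60 stood at -0.26 (unadjusted p = 0.0248 in limma), just under 1.2-fold. A further Gria2 probe, ILMN_3122922, read 10.87, 10.79 and 10.73 under vehicle, 10.79, 10.40 and 10.62 under Cpd-60, 10.18, 10.52 and 10.56 under SAHA and 10.67, 10.44 and 10.40 under CI-994. Its changes were -0.19 (unadjusted p = 0.156 in limma), -0.38 (unadjusted p = 0.0126 in limma) and -0.30 (unadjusted p = 0.0381 in limma) in that order, and the Cpd-60 pools overlapped with vehicle. The third Gria2 probe, ILMN_1222167, stood at -0.25, 0.03 and 0.05 with an SE of 0.469. Leaving out any 1 pool kept the SAHA call on ILMN_2680737, with changes from -0.50 to -0.33. The CI-994 call on this probe was lost without vehicle pool 3, at -0.23, and with Tukey's test. On ILMN_3122922 the SAHA call was lost without SAHA pool 1, at -0.26, and the CI-994 call without vehicle pool 1 or 2 or CI-994 pool 2 or 3, at -0.30 to -0.24. With Tukey's test both calls on ILMN_3122922 were lost, and with neqc normalization the CI-994 call was, at -0.31. Within the 2 BeadChips ILMN_2680737 changed by -0.40 and -0.52 under SAHA and by -0.17 and -0.49 under CI-994.

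Cortical RNA in the NAc dissection was read beside this result. The summed normalized intensity of 6 cortical glutamatergic neuron markers in NAc ran from 798 to 942 under vehicle, 718 to 859 under Cpd-60, 700 to 806 under SAHA and 676 to 1025 under CI-994. The sum of 8 striatal markers ran from 19514 to 21209 under vehicle, 15644 to 23826 under Cpd-60, 13298 to 20643 under SAHA and 16117 to 20233 under CI-994. Mean Slc17a7 was 8.02, 7.58, 7.26 and 7.50 in the same order. Other markers called in NAc were the astrocyte gene Gja1 under SAHA, at 0.35 (1 of 6), and, under CI-994, Mog of oligodendrocytes at -0.45 (1 of 6), Ly6c1 of endothelial cells at -0.46 (1 of 5) and the hemoglobin genes Hba-a1 and Hbb-b1 at -0.89 and -0.65 (2 of 3). The astrocyte sum ran from 9774 to 10613 under SAHA against 8211 to 9759 under vehicle. Under CI-994 the oligodendrocyte sum ran from 13861 to 17336 against 15284 to 19883, the endothelial sum from 1351 to 1450 against 1365 to 1621 and the blood sum from 4560 to 9533 against 8099.6 to 11515.5. The part of these shifts in the Gria2 values and in the scaffold genes of NAc was not tested. In PFC and HIP no Gria2 probe had an unadjusted p under 0.05 under any compound. CI-994 pool 1 of PFC read low on Gria2, at 10.80 and 10.07 on the named probes, beside 11.48 to 11.51 and 10.57 to 10.58 in the other CI-994 pools of PFC. The brightest probe changed by 0.17, 0.01 and -0.16 in PFC and by 0.22, 0.10 and 0.11 in HIP under Cpd-60, SAHA and CI-994.

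Scaffold genes gave 2 further calls in NAc. On Homer1 probe ILMN_2593584 the vehicle pools read 7.51, 7.53 and 7.42, the Cpd-60 pools 7.19, 7.41 and 7.10, the SAHA pools 7.39, 7.27 and 7.09 and the CI-994 pools 7.29, 7.20 and 7.09. All treated pools lay below the vehicle pools. CI-994 was 1.22-fold below vehicle (log2 change -0.29, SE 0.0992, unadjusted p = 0.0142, adjusted p = 0.9999, both in limma), while Cpd-60 and SAHA stood at -0.25 and -0.24 and did not reach 1.2-fold. With neqc normalization both did, at -0.48 for Cpd-60 (unadjusted p = 0.0330 in limma) and -0.45 for SAHA (unadjusted p = 0.0466 in limma). Without vehicle pool 3 they were also called, at -0.29 and -0.27. The CI-994 call was lost, at -0.24 in both fits, without CI-994 pool 3 and with a BeadChip term, and it was lost with Tukey's test. The other tested Homer1 probes had no unadjusted p under 0.05 in NAc. Dlg4, which encodes PSD-95, read 8.97, 9.03 and 9.35 under vehicle and 8.87, 8.80 and 8.87 under SAHA. The change was -0.28 (1.21-fold, unadjusted p = 0.0291, adjusted p = 0.9998, both in limma), beside 0.14 under Cpd-60 and -0.21 under CI-994. Within the 2 BeadChips it was -0.13 and -0.52. It rested on vehicle pool 3, without which it was -0.16 and lost its call, and it was also lost without SAHA pool 2 or pool 3, with neqc normalization (-0.32) and with Tukey's test. Gria3 probe ILMN_2638066 stood at -0.28 under Cpd-60 in NAc (unadjusted p = 0.0383 in limma), with overlapping pools.

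In HIP, SAHA gave 1 call. On Grin1 probe ILMN_1216667 the vehicle pools read 6.93, 7.01 and 6.90 and the SAHA pools 6.82, 6.53 and 6.63. SAHA was 1.22-fold below vehicle (log2 change -0.29, SE 0.0909, unadjusted p = 0.00793, adjusted p = 0.502, both in limma), and the probe was detected at 0.01 on 1 of 3 SAHA arrays. The other Grin1 probe stood at -0.14 (unadjusted p = 0.438 in limma). SAHA pools 2 and 3 were the dim arrays, and without both of them the change was -0.13, with the lone pool assumed to vary like the other groups. The call was also lost without vehicle pool 2 (-0.26), without SAHA pool 2 (-0.22), with a BeadChip term (-0.25) and with Tukey's test, and within the 2 BeadChips the change was -0.15 and -0.32. Members with an unadjusted p under 0.05 in limma but under 1.2-fold in this comparison included Gria1 at 0.26, Grik4 at 0.22, Dlg5 at 0.22 and Dlgap3 at -0.26. The other 3 Gria1 probes stood between -0.19 and -0.11, against the direction of the brightest. Markers of other cells moved in the same comparison. Of 6 oligodendrocyte markers, Mbp, Mobp and Mog were called, at -0.28, -0.41 and -0.26, and the list's sum ran from 21461 to 23965 under SAHA against 24861 to 27886 under vehicle. Of 6 astrocyte markers, Gfap was called at -0.81 and Slc1a3 at 0.33, with sums of 11326 to 11966 against 10709 to 11366. Hba-a1 was called at -0.52 among 3 blood markers, with sums of 5228 to 8316 against 8374 to 9783, and Drd1a at -0.31 among 5 tested striatal markers, with sums of 1353 to 1395 against 1231 to 1394. Their part in the Grin1 value was not tested.

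Of the pathway genes, 4 passed the drug threshold, all of them under SAHA. In NAc, 1 of 9 tested partners was called, with 0 of 15 signaling genes and 0 of 8 of synthesis and transport, beside 0.546% of all probes. In HIP 1 of 10, 1 of 16 and 1 of 8 were called, beside 3.17%. Neto1 changed by -0.34 in NAc. In HIP, Nptx2, a secreted pentraxin that gathers AMPA receptors, changed by -0.79, Iqsec2, an exchange factor of the postsynaptic density, by -0.45 and Slc1a3, the astrocyte glutamate transporter, by 0.33. None had an adjusted p under 0.05 in limma.

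The third question was whether a compound's change differed among the regions. Of 67 members tested in all 3 regions, an F test in limma gave an unadjusted p under 0.05 for 2 under Cpd-60, 3 under SAHA and 0 under CI-994, beside 2%, 3.83% and 1.32% of all probes, and none passed adjustment. Each F test took NAc minus PFC and HIP minus PFC together, so its p-value belongs to neither difference alone. For Gria2 probe ILMN_3122922 under SAHA the change in NAc stood below that in PFC by a log2 difference of -0.55 (F test unadjusted p = 0.0133 in limma). For ILMN_2680737 the same difference was -0.41 under SAHA (F test unadjusted p = 0.0341 in limma) and -0.43 under Cpd-60 (F test unadjusted p = 0.0384 in limma). Under CI-994 it was -0.15, with changes of -0.16 in PFC and 0.11 in HIP (F test unadjusted p = 0.117 in limma). Without CI-994 pool 1 the F test gave unadjusted p = 0.00667 on this probe and unadjusted p = 0.0110 on ILMN_3122922, both in limma. For Grik3 the Cpd-60 change was lower in NAc and HIP than in PFC by -0.20 and -0.21, and for Grik4 the SAHA change was higher there by 0.17 and 0.32. None of these 5 F tests held when each pool was left out in turn. ILMN_2680737 lost its p under 0.05 in 8 of 12 such fits under Cpd-60 (p up to 0.151 in limma) and, under SAHA, without vehicle pool 1 or 3 or SAHA pool 1 or 2 (up to 0.153), and with neqc normalization under both compounds (0.0647 and 0.0579). ILMN_3122922 lost it without vehicle pool 1 or SAHA pool 1 (up to 0.104). Grik3 lost it without vehicle pool 2 or Cpd-60 pool 1 or 3 (up to 0.182), and Grik4 without any of the vehicle pools or SAHA pool 2 (up to 0.181).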

How the data were processed

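The 36 Illumina MouseWG-6 arrays held RNA of 3 brain regions under 4 treatments, in pools of 2 mice. The authors deposited raw intensity on a linear scale, exported without normalization. They also deposited a detection p-value beside every intensity. There were 0 columns of other samples. The study's methods used quantile normalization and an analysis of variance with Tukey's test in GeneSpring. Here the 36 arrays were quantile normalized together in R 4.3.3 with limma 3.58.1, with a floor of 1 on the intensity, and log2 transformed. Probes present at a detection p of at most 0.2 on 3 of 3 arrays of some group were tested in limma, and p-values were adjusted by Benjamini-Hochberg over all probes tested, numbering 22156 in PFC, 23242 in NAc, 23275 in HIP, 22606 for the vehicle regions and 19447 for the F tests. Each drug fit held the 12 arrays of a region, and the region and F tests held all 36. The number of arrays limits the precision. On simulated data, 95.0%, 87.5% and 96.5% of 200 probes changed by 1 on the log2 scale were recovered at an adjusted p under 0.05 for Cpd-60 in PFC, NAc and HIP. False calls numbered 5, 17 and 21 in turn. The simulated noise was independent between arrays, and the largest change of a member under any compound was 0.51. The recovery therefore does not tell how often changes of the sizes seen here would be found.

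The members and gene lists were chosen with earlier results of these data known. Named genes were those with the 6 largest called differences in each direction between regions, members past the drug threshold without overlap of pools, all Cacng genes, and the 3 smallest F test p-values per drug. A gene with several probes was given by the probe with the highest mean over the 36 arrays, and genes named outside the rule were chosen after their values were seen. Where a probe was detected at 0.01 on 0 of 3 arrays of the dimmer group, its fold was taken against the lowest signal of probes well above background. Cacng8 in NAc, Grm8 in HIP and Grin1 under SAHA in HIP were detected on 1 of 3 arrays, and their folds are plain differences of means. The vehicle means of Cacng8 in NAc (6.66) and Grm8 in HIP (6.67) lay below that lowest signal, 6.73 and 6.70, so these folds may be too large. Replicate numbers come from the mouse numbers in the titles, so that a pool carries 1 number in all 3 regions. Deviations of the regions of a pool from their group means correlated at -0.46 to 0.56 (median -0.02) over 36 pairs, with 11 above 0.1. Within a region the number pairs no animals. Deviations of same-numbered pools of different treatments within a region nevertheless correlated at -0.42 to 0.86 (median 0.21) over 54 pairs, with 32 above 0.1. The arrays of a region may thus not vary independently, as the main fits assume, and the cause was not tested. No pair of arrays held identical values (0 pairs). Alternatives were neqc normalization, a detection p of 0.01 or no filter, BeadChip and replicate blocks, the 27 arrays without CI-994, analysis of variance with Tukey's test, and leaving out each pool. Leaving out SAHA pools 2 and 3 together was chosen after seeing the data. Single-gene results of some members are not reported here, although all members enter the counts.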

Additional observations from a re-analysis of the deposited data

Results flagged for a closer look

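In 5 cases a compound's change differed among the 3 regions at an unadjusted p under 0.05 in an F test with limma. For Gria2 under SAHA this was unadjusted p = 0.0133 on ILMN_3122922 and unadjusted p = 0.0341 on ILMN_2680737 in limma, with changes in NAc of -0.38 and -0.41. For Gria2 under Cpd-60 it was unadjusted p = 0.0384 on ILMN_2680737 in limma. Grik3 (ILMN_2619640) under Cpd-60 gave unadjusted p = 0.0258 and Grik4 (ILMN_1232802) under SAHA gave unadjusted p = 0.0355, both in limma. None passed adjustment, with adjusted p-values of 0.9995 or more in limma. Groups of 3 pools were not tested for outlying samples.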

How the results depend on the processing

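No named drug change or region difference changed direction under any alternative, and an F test has no direction to change. Of the comparisons of region differences with their alternatives, 497 kept their side of the threshold and 25 lost it. For drug changes 273 kept it, 34 lost it and 14 gained it, and for F tests 119, 23 and 10 did. Many of these fits left out a pool outside the comparison, where only the estimate of the spread could move. The totals therefore make the calls look more stable than they are. With neqc normalization, 4 members were called under Cpd-60 in PFC (0 before), 1 under SAHA in PFC (0 before), 6 under SAHA in HIP (1 before) and 4 under CI-994 in HIP (0 before), and Cacng5 in PFC passed the threshold at 0.66 (ILMN_2725698) and 0.32 (ILMN_2812240). At a detection p of at most 0.01, 1 member differed among regions under Cpd-60 (2 before). With the BeadChip as a block, 1 was called under CI-994 in PFC, 5 under SAHA in NAc (3 before) and 0 under SAHA in HIP. On 27 arrays without CI-994, 5 were called under Cpd-60 in HIP (2 before) and 4 under SAHA in HIP, and Cacng5 ILMN_2812240 in NAc, at 0.41, lost its call. With Tukey's test the NAc counts were 1 for Cpd-60, 1 for SAHA and 0 for CI-994 (3 each before), SAHA in HIP had 0, and Cacng5 ILMN_2812240 in NAc (0.41) lost its call. Without SAHA pools 2 and 3, SAHA in HIP had 0. The causes of these shifts were not tested. The replicate block gave 2 calls for SAHA in HIP (1 before) and changed no other count by over 1.5 times, with a consensus correlation of -0.01 between the regions of a pool.

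Leaving out each pool in turn gave 13 to 25 called members for HIP against PFC, 12 to 24 for NAc against PFC and 19 to 30 for HIP against NAc. Counts under Cpd-60 ran from 0 to 2 in PFC, 1 to 5 in NAc and 2 to 7 in HIP, under SAHA from 0 to 2, 2 to 6 and 0 to 5, and under CI-994 from 0 to 1, 1 to 7 and 0 to 3. F test counts ran from 0 to 4, 0 to 4 and 0 to 5 for Cpd-60, SAHA and CI-994. Cacng5 under Cpd-60 ran from 0.19 to 0.29 in PFC, 0.41 to 0.55 in NAc and 0.30 to 0.45 in HIP on ILMN_2725698, and from 0.15 to 0.17, 0.33 to 0.48 and 0.34 to 0.64 on ILMN_2812240. Signal over background limits the dim probes, and the change of Cacng5 ILMN_2725698 in PFC was 0.24 after quantile normalization and 0.66 after neqc.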

Other observations

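CI-994 pool 2 of HIP had a summed cortical glutamatergic neuron marker intensity of 5799, beside 2496 to 3687 in the other HIP pools. Without it, 1 member was called under CI-994 in HIP, where 0 were called with all pools.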
